A study of Mus musculus with 7 samples.

Results

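The 10 genes described here are the NR4A factors Nr4a1, Nr4a2 and Nr4a3, the EGR factors Egr1, Egr2 and Egr3, the EGR corepressor Nab2, the surface activation marker Cd69, the immediate early gene Ier2 and the growth factor-responsive transcription factor Myc. They were chosen by name as genes that respond early to the T cell receptor, and all 10 of 10 were on the array and bright enough to test, among 13084 tested genes. A gene with more than 1 probe set is represented by its brightest, judged by the mean of all 7 arrays. Regulatory T (Treg) cells, CD4 T cells that express Foxp3, were sorted as CD4+ YFP+ cells from spleen and pLN, as the labels abbreviate it, of Foxp3Cre mouse chimeras. In the 3 KO samples both alleles of Pggt1b were floxed, and in the 4 Het samples 1 allele was floxed and the other was wild type. All 7 samples carried the Foxp3Cre allele and at least 1 floxed Pggt1b allele, so a group without a floxed allele was not compared. Pggt1b encodes the beta subunit of an enzyme that adds a geranylgeranyl group to Rap GTPases among other proteins, and Cre driven with Foxp3 restricts its deletion to cells that have switched on Foxp3. The sources used here do not give the age of the mice, the host of the chimeras or whether each sample had its own donor animal.

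When a T cell receptor binds antigen, calcium signalling through calcineurin and NFAT and Ras signalling through the ERK kinases switch on a small set of genes that need no new protein synthesis. NR4A proteins are orphan nuclear receptors and EGR proteins are zinc finger factors, and both families are widely read as a record of recent receptor signalling. In mouse Treg cells NR4A factors support Foxp3 expression and lineage stability, and Egr2 and Egr3 are known as restraints on T cell activation.

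The control regions of the NR4A genes and of Egr2 are shown because 3 paralogues and an EGR factor can be read side by side there, and no difference between their changes passed the test below. The sequences are the 250 bases before the start site in RefSeq on GRCm38.p6, written 5′ to 3′ along the gene. A window was found for 5 of the 10 genes (Nr4a1, Nr4a2, Nr4a3, Egr2 and Nab2), with 5 windows for Egr2, of which 1 is shown. Capitals mark TGACG on either strand (the core of the cyclic AMP response element, bound by CREB), GCGGGGGCG on either strand (an EGR site) and the CArG box (bound by serum response factor).
Nr4a1, chr15:101266596-101266845, plus strand: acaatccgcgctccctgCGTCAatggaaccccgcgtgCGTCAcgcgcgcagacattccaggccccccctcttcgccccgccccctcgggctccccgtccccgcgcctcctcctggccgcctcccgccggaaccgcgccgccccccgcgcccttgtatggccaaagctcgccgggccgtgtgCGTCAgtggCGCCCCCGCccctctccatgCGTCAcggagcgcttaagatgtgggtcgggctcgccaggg
Nr4a2, chr2:57124004-57124253, minus strand: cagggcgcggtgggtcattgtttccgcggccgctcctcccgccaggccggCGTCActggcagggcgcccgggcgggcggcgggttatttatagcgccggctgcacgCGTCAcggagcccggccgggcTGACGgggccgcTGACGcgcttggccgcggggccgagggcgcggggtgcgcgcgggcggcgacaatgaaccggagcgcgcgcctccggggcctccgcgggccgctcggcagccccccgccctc
Nr4a3, chr4:48045055-48045304, plus strand: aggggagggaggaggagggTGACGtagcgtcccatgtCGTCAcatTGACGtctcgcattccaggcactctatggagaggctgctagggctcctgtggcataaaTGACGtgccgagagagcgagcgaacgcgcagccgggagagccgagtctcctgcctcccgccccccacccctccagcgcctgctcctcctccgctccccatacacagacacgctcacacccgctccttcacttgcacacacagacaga
Egr2, chr10:67537619-67537868, plus strand: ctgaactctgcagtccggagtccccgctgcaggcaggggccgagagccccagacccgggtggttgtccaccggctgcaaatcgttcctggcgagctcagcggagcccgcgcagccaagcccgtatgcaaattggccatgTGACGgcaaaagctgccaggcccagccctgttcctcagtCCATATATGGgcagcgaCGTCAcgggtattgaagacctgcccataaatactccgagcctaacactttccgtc
Each of the 3 NR4A windows held 4 copies of TGACG, counted on both strands. At least 4 copies occurred in 0.137% of the 32851 windows in the RefSeq table, and at least 1 copy in 17.8%. The whole element TGACGTCA was in none of the 3, against 1.55% of all windows. The Nr4a1 window also held GCGGGGGCG, at positions -60 to -52 from the start site, which occurred in 2.57% of windows. The Egr2 window held the CArG box CCATATATGG, at positions -72 to -63, and 2 copies of TGACG, and 2 windows that overlap it held the same matches. The other 2 Egr2 windows held no TGACG, and 1 of these held a CArG box of other letters and the other an E box. A CArG box was in 1.47% of windows. The other motifs searched on both strands were GCGTGGGCG (EGR), AAAGGTCA (the NR4A site), CACGTG (the E box of MYC), TATAAA and GGAAA (the NFAT core), and the Nab2 window held none of the 9 motifs. These matches describe the letters of the windows only.

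In KO cells Myc, which drives cell growth, rose 1.47-fold, and Nr4a2 fell 2.07-fold. The other 8 did not pass the test (limma, Benjamini-Hochberg adjusted over all 13084 genes, threshold 0.05), so 2 of 10 were called, beside 5.79% of all tested genes. Over all tested genes 2.55% rose and 3.24% fell, and 1 of 10 in each direction is too small a count to set apart from that background. An unadjusted p under 0.05 was found for 5 of the 10, beside 19.9% of all tested genes. By sign alone 4 of the 10 were higher and 6 lower. The median change of the 10 was -0.17 on the log2 scale, beside -0.02 over all tested genes. Values below are deposited RMA values on the log2 scale and changes are KO minus Het. Because these are bulk samples, fewer cells expressing a gene and less RNA per cell cannot be told apart.

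**Figure D1:**
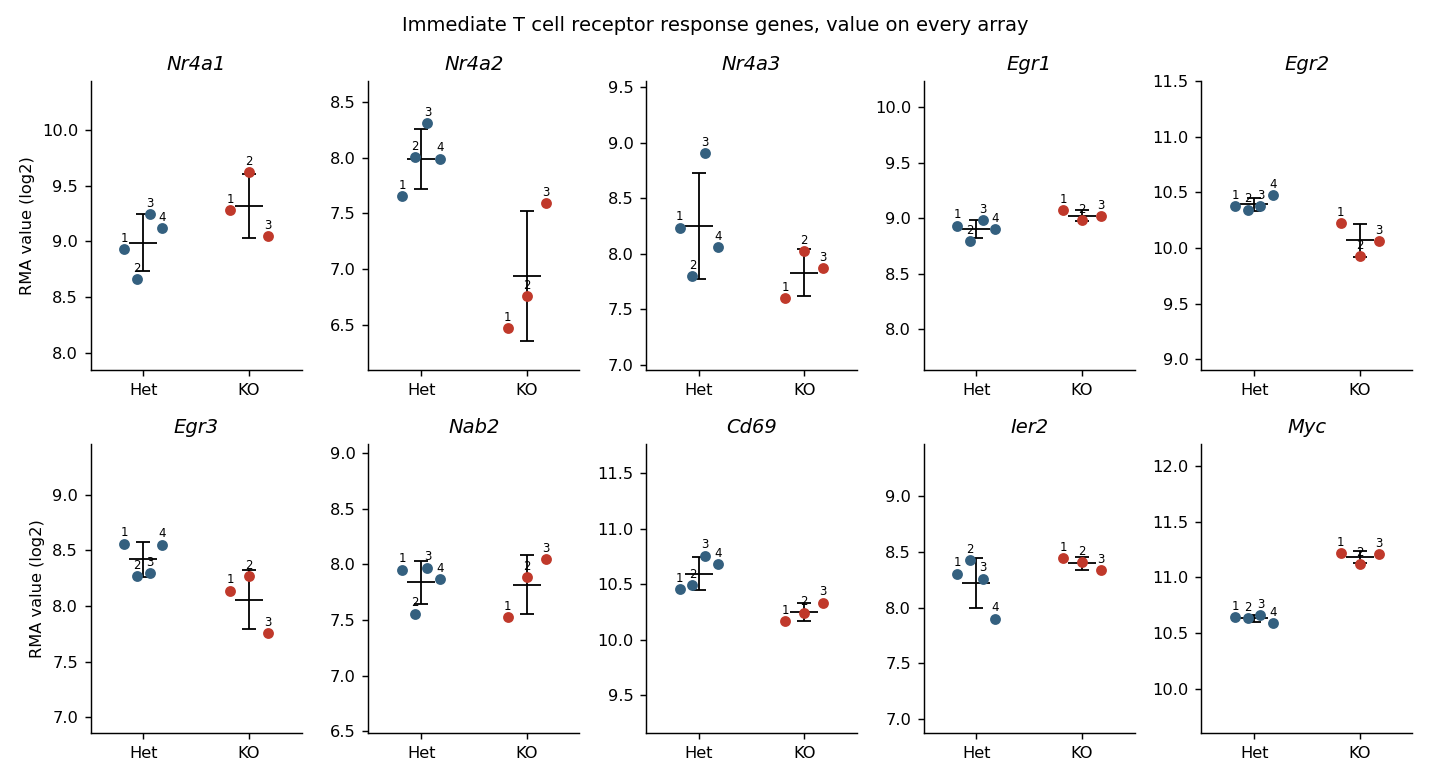
Deposited RMA values (log2, vertical axis) of the 10 genes on each of the 4 Het arrays (blue) and 3 KO arrays (red), with the array's replicate number; black marks are the group mean and SD, and every panel spans the same number of log2 units. The Myc arrays lie close together within each group and apart between groups, while the KO arrays of Nr4a2 are spread from 6.47 to 7.59.

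Among the NR4A factors, Nr4a2 read 6.47, 6.75 and 7.59 on KO arrays 1 to 3. On Het arrays 1 to 4 it read 7.66, 8.01, 8.31 and 7.99. All 3 KO arrays lay below all 4 Het arrays, and KO array 3 lay just under the lowest Het array. Nr4a2 changed by -1.05 ± 0.24 (SE), with a 95% interval of -1.59 to -0.51 and an adjusted p of 0.0307 (limma). With all 35 ways of splitting the arrays enumerated, its two-sided exact permutation p was 0.0286, the smallest that 3 against 4 arrays can give. The call was lost when KO array 1 (-0.82), KO array 2 (-0.96), Het array 2 (-1.05), Het array 3 (-0.95) or Het array 4 (-1.05) was left out, and it was kept without KO array 3 (-1.38) or Het array 1 (-1.16).

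Nr4a1, the family member most used as a reporter of receptor signal strength in mice, read 9.28, 9.63 and 9.05 on the KO arrays. It read 8.93, 8.66, 9.25 and 9.12 on the Het arrays. The groups overlapped, and the change of 0.33 ± 0.17 (SE), with an interval of -0.06 to 0.72, did not pass (adjusted p = 0.331, limma). It was 0.18 without KO array 2 and 0.22 without Het array 2. Nr4a3, a paralogue that acts redundantly with Nr4a1 in mouse Treg development, read 7.60, 8.02 and 7.87 on the KO arrays. It read 8.24, 7.80, 8.91 and 8.06 on the Het arrays, with Het array 3 highest. Its change of -0.42 ± 0.23 (SE), with an interval of -0.93 to 0.09, did not pass either (adjusted p = 0.352, limma), and was -0.20 without Het array 3. The sign of Nr4a1 was positive and those of Nr4a2 and Nr4a3 negative in the main fit and in all 17 other settings tried.

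Among the EGR factors, Egr2 read 10.22, 9.92 and 10.06 on the KO arrays and 10.37, 10.34, 10.37 and 10.48 on the Het arrays. Its groups did not overlap, and neither did those of 4 of the 10 genes in all (Nr4a2, Egr2, Cd69 and Myc), beside 19.5% of all tested genes (9.68% with KO higher and 9.82% with KO lower). Even so the Egr2 change of -0.32 ± 0.12 (SE) did not pass (adjusted p = 0.145, limma). It passed only with trended and robust moderation of the variances (adjusted p = 0.0437, limma), among the 17 other settings. Egr1, which shares its DNA site with Egr2 and Egr3, read 9.07, 8.98 and 9.02 on the KO arrays. It read 8.93, 8.79, 8.98 and 8.90 on the Het arrays, so KO array 2 met the highest Het array. The Egr1 change was 0.12 ± 0.11 (SE; adjusted p = 0.591, limma), with an interval of -0.12 to 0.36, and was 0.18 with each array centred on the median of all its probe sets.

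Egr3, a target of NFAT in T cells, had 3 probe sets, of which the brightest stood for the gene. That set read 8.14, 8.27 and 7.76 on the KO arrays and 8.56, 8.27, 8.30 and 8.55 on the Het arrays. The Egr3 groups met at KO array 2 and Het array 2, and the change was -0.36 ± 0.15 (SE; adjusted p = 0.204, limma). The other Egr3 probe sets were lower in KO by 0.09 and 0.15 on the log2 scale, so the 3 sets had the same sign and differed in size. The change was -0.20 with the mean of the 3 sets and -0.22 without KO array 3. Nab2 encodes a corepressor that binds EGR proteins and is itself induced by them. It read 7.52, 7.88 and 8.05 on the KO arrays and 7.95, 7.56, 7.97 and 7.87 on the Het arrays. The Nab2 arrays of both groups were interleaved, at a change of -0.02 ± 0.16 (SE), and its interval of -0.37 to 0.32 holds changes in both directions.

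Cd69 is a lectin at the cell surface that appears within hours of activation and pulls the egress receptor S1pr1 off the membrane. It read 10.17, 10.24 and 10.33 on the KO arrays and 10.45, 10.49, 10.76 and 10.68 on the Het arrays. All KO arrays lay below all Het arrays, but the change of -0.35 ± 0.12 (SE) did not pass (adjusted p = 0.136, limma). It passed only with trended and robust moderation (adjusted p = 0.0367, limma), among the 17 other settings. Ier2, an immediate early gene switched on by many stimuli, read 8.45, 8.41 and 8.34 on the KO arrays. It read 8.31, 8.43, 8.26 and 7.90 on the Het arrays, the last being the lowest. The Ier2 change was 0.17 ± 0.14 (SE; adjusted p = 0.549, limma), and was 0.065 without Het array 4 and 0.11 with array weights.

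Myc read 11.22, 11.12 and 11.21 on the KO arrays. On the Het arrays it read 10.64, 10.63, 10.66 and 10.59. The SD was 0.05 in KO (n = 3) and 0.03 in Het (n = 4), the tightest Het group among the 10 genes. Every KO array lay above every Het array, at a change of 0.55 ± 0.10 (SE), an interval of 0.32 to 0.78 and an adjusted p of 0.0113 (limma). The rise passed in all 17 other settings, with changes from 0.53 to 0.61. Without KO array 3 its adjusted p was 0.0496 (limma), the highest of these. Myc ranked 390 of 13084 by change from the highest rise, and its rise was steady across arrays and settings.

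**Figure D2:**
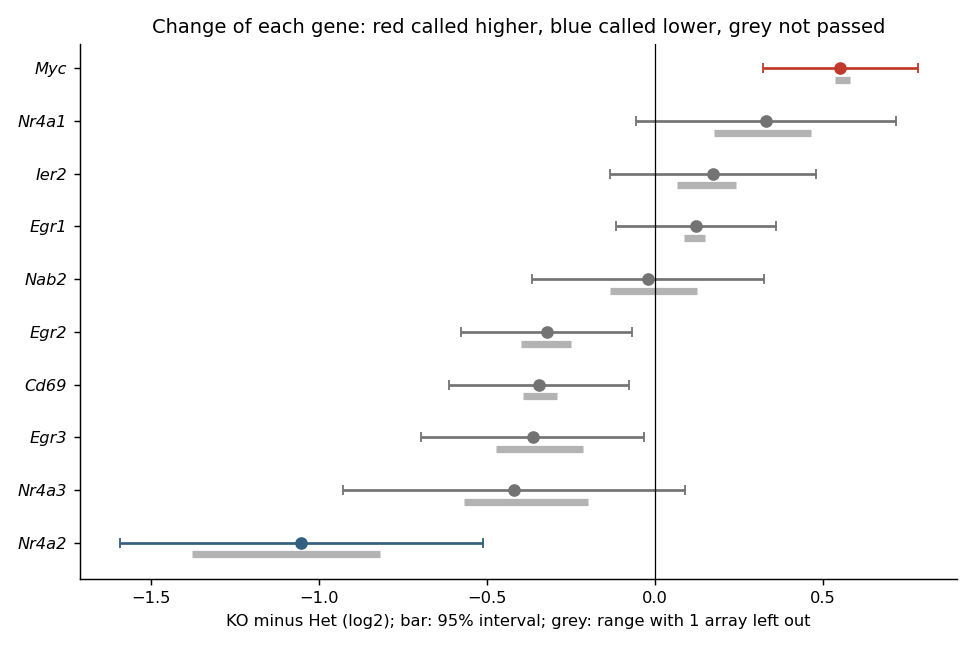
Change of each of the 10 genes (KO minus Het, log2, horizontal axis) with its 95% interval, ordered from the highest; the grey bar under each point spans the changes with 1 array left out. Myc (0.55) and Nr4a2 (-1.05) passed the test, and only the grey bar of Nab2 crosses 0.

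Since genes of 1 pathway moved in opposite directions by sign, differences in change were tested for 12 pairs, with the difference of 2 genes taken within each array. Only its shift between groups can be read, since levels of different probe sets are not comparable. Of the 12 pairs, 7 had groups that did not overlap and 6 reached the smallest exact p, 0.0286, but none passed at 0.05 after adjustment over the 12 (0 pairs, exact two-sided permutation test). All 6 had an adjusted p of 0.0571, and with so few arrays a pair passes only when enough other pairs reach the same minimum. For Myc minus Nr4a2 and Myc minus Egr2 the lack of overlap was fixed beforehand. On every KO array Myc alone was higher, and Nr4a2 and Egr2 each lower, than on any Het array. Nr4a1 minus Nr4a2, Egr1 minus Egr2 and Cd69 minus Nr4a1 each also hold a gene that alone separated the groups, with a partner of opposite sign. Their separation is thus not independent of the single genes, and the counts of pairs partly restate them. How often other pairs of genes separate was not computed. The signs of the 6 shifts at the smallest exact p were the same after quantile normalization, with the mean of all probe sets of a gene and with any 1 array left out. Egr1 minus Egr3 was less stable in size. Its adjusted p was 0.147 (exact permutation test) both with quantile normalization and with the mean of all probe sets.

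In the NR4A family the change of Nr4a1 exceeded that of Nr4a2 by 1.38 ± 0.42 (SE). The within-array difference was 2.81, 2.87 and 1.46 on the KO arrays and 1.28, 0.65, 0.94 and 1.13 on the Het arrays. KO arrays 1 and 2 stood well apart from Het, and KO array 3 lay near the highest Het array. Nr4a1 exceeded Nr4a3 by 0.75 ± 0.22 (exact p = 0.0571, adjusted p = 0.098), and Nr4a2 and Nr4a3 differed by -0.63 ± 0.35 (exact p = 0.171, adjusted p = 0.257), with overlapping groups. In the EGR family the change of Egr1 exceeded that of Egr2 by 0.44 ± 0.07. That difference was -1.15, -0.94 and -1.05 on the KO arrays and -1.44, -1.55, -1.39 and -1.57 on the Het arrays, with no overlap. Egr1 exceeded Egr3 by 0.49 ± 0.16, also at the smallest exact p in the main setting, and by 0.32 with the mean of all probe sets. Egr2 and Egr3 differed by 0.04 ± 0.18 (exact p = 0.857).

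Myc and Egr2 shifted apart by 0.87 ± 0.07 (SE), though each gene alone already separated the groups, in opposite directions. Their difference was 1.00, 1.20 and 1.15 on the KO arrays and 0.27, 0.29, 0.29 and 0.11 on the Het arrays. Myc minus Nr4a2 shifted by 1.60 ± 0.32. Cd69 and Nr4a1, both used as activation readouts, shifted apart by -0.68 ± 0.19, with differences of 0.89, 0.62 and 1.28 on the KO arrays and 1.52, 1.83, 1.51 and 1.56 on the Het arrays. The remaining 3 pairs, Nab2 with Egr1, Nab2 with Egr2 and Ier2 with Egr1, overlapped, at shifts of -0.14 ± 0.16, 0.30 ± 0.21 and 0.05 ± 0.16. The corepressor Nab2 thus could not be set apart from either EGR factor.

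**Figure D3:**
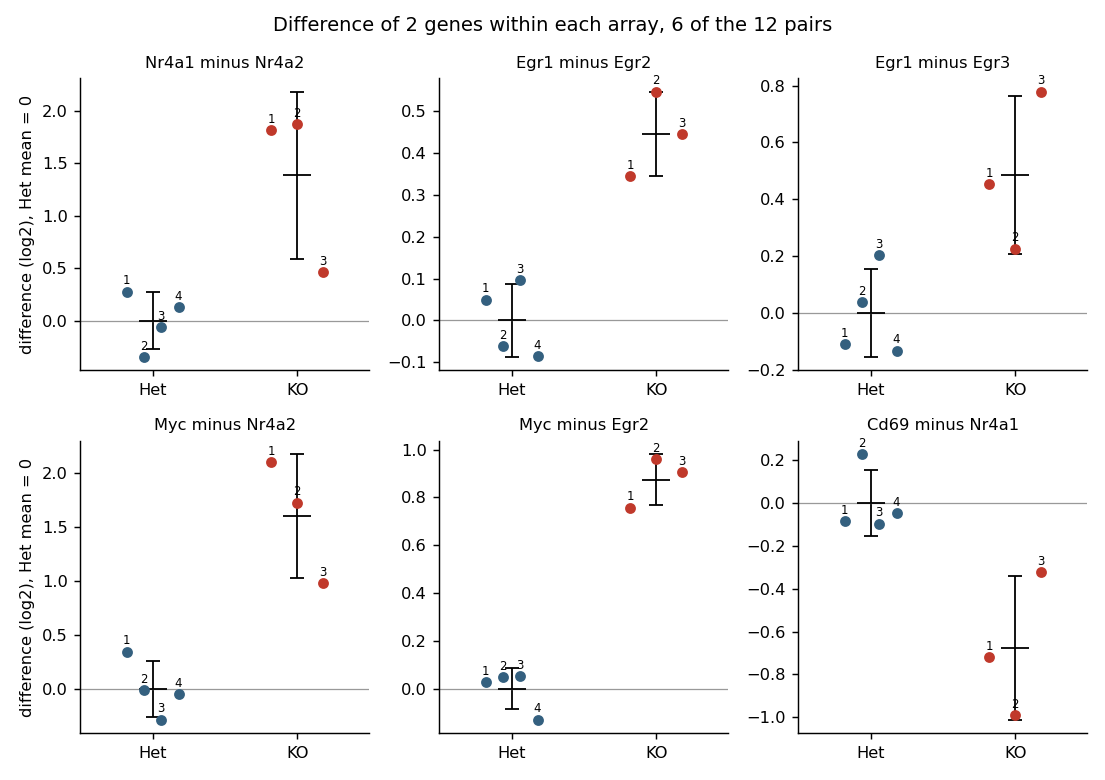
Difference of 2 genes within each array (log2, vertical axis), shifted so that the Het mean is 0, for the 6 pairs that reached the smallest exact p; points are arrays with their replicate number, black marks the group mean and SD, and vertical scales differ between panels. In each panel the 3 KO arrays lie on 1 side of all 4 Het arrays, most narrowly at KO array 2 for Egr1 minus Egr3 and at KO array 3 for Nr4a1 minus Nr4a2. For the pairs with Myc this follows from the single genes, and Nr4a2, Egr2 and Cd69 in the other pairs also separated the groups alone.

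Genes with the most similar profile were found by the root mean square distance of gene-centred values over the 7 arrays, as a description. The nearest to Nr4a2 were Ahnak (distance 0.136) and Cpe (0.177), which changed by -0.91 and -1.10. Nearest to Myc were Hdac5 (0.0405) and Casp2 (0.0464), both changed by 0.53, and nearest to Egr2 were Adora2a (0.0413) and Psmd14 (0.0600). For Nr4a1 they were Inhbe and Atxn1l, for Nr4a3 Msantd1 and Crem, for Egr1 Ins1 and Zswim3, and for Egr3 Txlna and Fut7. For Nab2 they were Eras and E2f6, and Vwa8 was near Cd69 and Ppp1cb near Ier2. None of the 10 genes was among the 2 nearest of another.

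Beside the 10, a list of 78 other genes that the receptor can induce was read, of which 73 were tested. Receptor signalling itself was not measured, so the list describes RNA levels of these genes only. Falls numbered 17 and rises 1, and 55 genes did not pass; the median change was -0.28 beside -0.02 over all tested genes. The falls were 23.3% of the list, beside 3.24% of all genes. The list, like those below, was chosen with earlier results of these data known, so its share is a description only. The larger falls included Tigit (-3.12), Nfil3, Pdcd1 (-1.71), Bhlhe40 (-1.22), Icos (-1.18) and Batf (-1.08), and Prdm1, which was above the floor on no KO array and at least 2.15-fold lower. The transcription factor Nfil3 changed by -1.76 ± 0.19 (SE; adjusted p = 0.00051, limma). Closer to the immediate response, the AP-1 subunit Fosb changed by -0.95 ± 0.23 (adjusted p = 0.0351, limma), while Fos (-0.74 ± 0.23, adjusted p = 0.097) and Junb (-0.49 ± 0.14, adjusted p = 0.0631) did not pass. Early genes did not all share this direction: Jun changed by -0.34, Zfp36 by -0.03, Egr4 by 0.08 and Atf3 by 0.21, and none of these passed. By sign 17 of the 73 were higher in KO and 56 lower. The G protein regulator Rgs16 (-1.08 ± 0.23) and the costimulatory receptor Tnfrsf9 (-0.64 ± 0.14) also fell. Spry2, a feedback inhibitor of Ras signalling, was the rise, at least 1.37-fold, with no Het array above the floor for dim genes. Cd5, whose level tracks receptor signal strength in mice, changed by -0.03 ± 0.12 (adjusted p = 0.937, limma). Irf4, which grades its level with receptor signal, changed by -0.43 ± 0.14 (adjusted p = 0.121, limma). Falls numbered 14 without KO array 1, 10 without KO array 2 or KO array 3 and 11 without Het array 3, and the rise was lost without any 1 KO array, Het array 2 or Het array 3 and with both stricter floors.

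Of 36 genes reported as NR4A or EGR targets in T cells, 34 were tested, at a median change of -0.03. Falls numbered 4 (11.8%, beside 3.24% of all genes) and rises 2 (5.88%, beside 2.55%), and 28 genes did not pass, Nr4a1 among them, which is also one of the 10. Ikzf2, the transcription factor Helios, fell 2.32-fold and the ectoenzyme Nt5e 2.45-fold. Ctla4 and Tnfrsf9 were the other falls, and both are also counted in the receptor-induced list. Ndrg1, an EGR2 target linked to T cell anergy in mice, rose 1.96-fold, and the quiescence factor Klf2 rose 1.63-fold. Foxp3 itself changed by 0.06 ± 0.12 (SE; adjusted p = 0.836, limma) and Lag3 by -0.62 ± 0.17 (adjusted p = 0.0584, limma). Falls were 2 without KO array 2, KO array 3 or Het array 3, 8 with trended and robust moderation and 7 with array weights, and 1 gene rose without any 1 of KO arrays 2 and 3 and Het arrays 2 and 3.

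A further list held 50 genes upstream of the 10, partners of their products or linked to a partner, as Klf2 is to S1pr1. Of these 48 were tested, and 5 rose, 0 fell and 43 did not pass (limma, with a median of 0.09). The rises were 10.4% of the list, beside 2.55% of all genes. Ppp3ca, the catalytic subunit of calcineurin, rose by 0.51 ± 0.12 (SE; adjusted p = 0.0296, limma), and Usp28, a deubiquitinase that stabilises MYC protein, by 0.68 ± 0.12 (adjusted p = 0.00809, limma). Klf2 and Mef2c were also among the rises, Mef2c by 1.53 ± 0.23 with 1 of 4 Het arrays above the floor. Klf2 and S1pr1 are also in the list of NR4A or EGR targets, so the rise of Klf2 is counted in both. S1pr1, the egress receptor that Cd69 removes from the membrane and Klf2 induces, changed by 0.40 ± 0.12 (adjusted p = 0.083, limma). Serum response factor Srf (0.10 ± 0.11) and the MYC partner Max (0.00 ± 0.10) did not pass, and neither did Nab1 (-0.03 ± 0.11), the paralogue of Nab2. Rises numbered 3 without KO array 2, KO array 3, Het array 2 or Het array 3, 8 with each array centred on the median of all its probe sets or with array weights, and 9 with trended and robust moderation.

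The rise of Myc was set beside 45 of its targets in ribosome making, growth and metabolism, of which 43 were tested. Of these 1 rose, 0 fell and 42 did not pass (limma), at a median of 0.02, and 2.33% risen is near the 2.55% of all genes. The rise was the spermidine synthase Srm, by 0.46 ± 0.11 (SE; adjusted p = 0.0396, limma). Eif4a1, a translation factor, changed by 0.50 ± 0.14 (adjusted p = 0.07, limma), and the nucleoside diphosphate kinase Nme2 by -0.40 ± 0.14 (adjusted p = 0.132, limma), so the next members had opposite signs. The Srm call was lost with no filter on dim genes and without any 1 of KO arrays 1, 2 and 3 and Het arrays 2, 3 and 4.

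**Figure D4:**
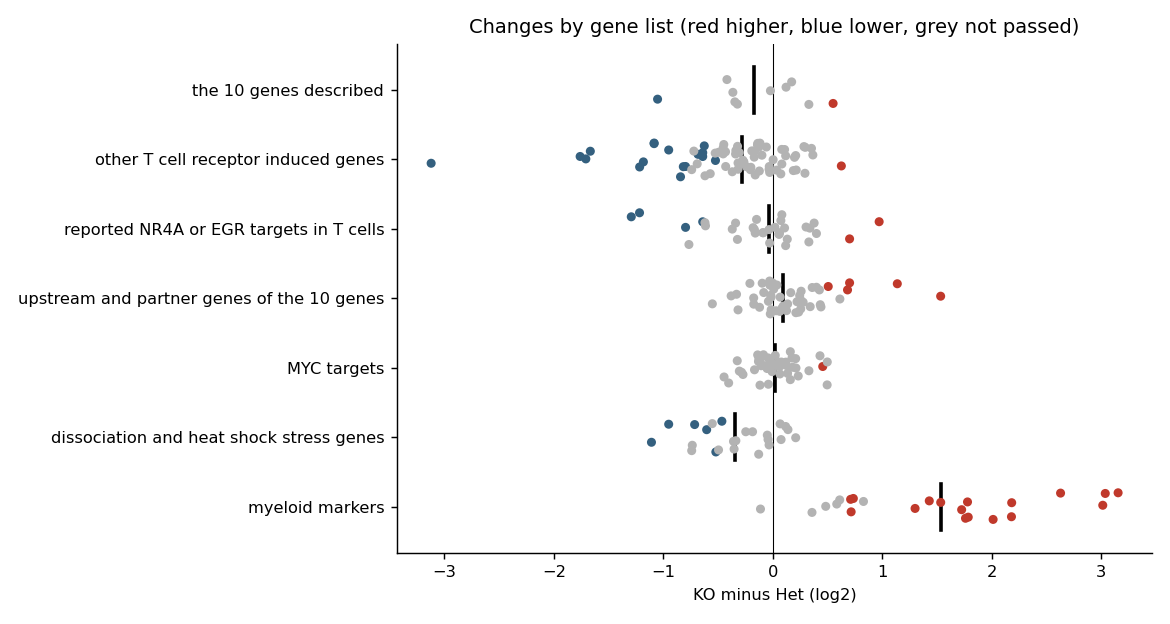
Change of every tested gene (KO minus Het, log2, horizontal axis) in the 10 genes described, 5 related lists and the myeloid markers; red points rose, blue points fell, grey points did not pass, and black bars are list medians. The other receptor-induced genes lean to falls (median -0.28), the MYC targets centre near 0 (median 0.02) and the myeloid markers lean to rises (median 1.54).

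The 7 arrays correlated at 0.971 to 0.987 within a genotype and at 0.943 to 0.964 between genotypes over the tested genes. Cd4 and Cd3e, which define CD4 T cells, and Foxp3 were above the floor on all 7 arrays. Il2ra, a surface marker of Treg cells, was dim, above the floor on 1 of 3 KO and 2 of 4 Het arrays. Pggt1b changed by -0.37 ± 0.13 (SE; adjusted p = 0.126, limma), with all KO arrays below all Het arrays. The sources used here do not place its probes relative to the floxed part, so this does not check the deletion.

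Markers of other cells moved with genotype on the same arrays. Of 23 tested myeloid markers 17 rose (73.9%, beside 2.55% of all genes) and 0 fell (limma), at a median of 1.54. A marker above the floor on the 3 KO arrays alone enters the test, as Mrc1 and Cd14 did. Rises numbered 13 with at least 4 arrays required or with the floor at the 99th percentile, and 12 to 15 with 1 array left out. The summed linear signal over all 29 markers was 4429 to 10256 on KO arrays and 2384 to 3055 on Het arrays, highest on KO array 1. On no Het array were 10 of the 29 above the floor, Mrc1, Cd14 and C1qc among them, and the neutrophil genes S100a8 and S100a9 were above it on no array. NR4A and EGR genes, Ier2 and Myc are also expressed in myeloid cells, and the part of these cells in the values above was not tested. Of the other marker lists, B cell (7 tested), plasma cell (1) and erythroid and platelet markers (9) had 0 calls (limma). The 4 haemoglobin genes read 2.60-fold to 3.28-fold higher in KO, with adjusted p from 0.254 to 0.317 (limma), and 2 erythroid or platelet markers rose without KO array 3. The summed linear signal of the erythroid and platelet markers was 9252, 5868 and 1967 on KO arrays 1 to 3 and 1480 to 4900 on the Het arrays, and its part in the values above was not tested. The CD8 T and NK cell markers had 2 rises (40%) and 1 fall (20%) of 5, beside 2.55% and 3.24% of all genes. Eomes (0.85) and Cd8b1 (0.65) rose, Nkg7 (-1.10) fell, and Cd8a and Prf1 did not pass. T and Treg identity genes had 2 falls of 16 (12.5%, beside 3.24% of all genes), Ikzf2 and Ctla4, both also counted among the NR4A or EGR targets. By sign 12 of the 16 identity genes were lower in KO and 4 higher, at a median of -0.17. All KO arrays lay below all Het arrays for 6 of them and above for 0, beside 9.82% and 9.68% of all tested genes. The CD8 T and NK rises numbered 1 without KO array 2 or KO array 3, and the identity falls 1 without KO array 2, KO array 3, Het array 2 or Het array 3. Without KO array 1 the Myc change was 0.54 and that of Nr4a2 was -0.82, with the Nr4a2 call lost. The mean of the tested myeloid markers was still 7.26 and 7.55 on KO arrays 2 and 3, beside 6.07 to 6.54 on the Het arrays. Leaving out KO array 1 therefore does not test the part of the myeloid signal.

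Genes sensitive to cell dissociation and heat shock fell in 6 of 24 tested (25%, beside 3.24% of all genes) and rose in none (0, limma), at a median of -0.34. The heat shock gene Hspa1a fell by 1.11 ± 0.22 (SE) on the log2 scale and the phosphatase gene Dusp1 by 0.60 ± 0.13. Their mean value was 8.66, 8.97 and 9.07 on KO arrays 1 to 3 and 9.09, 9.21, 9.31 and 9.33 on Het arrays 1 to 4. All 3 KO arrays lay below all 4 Het arrays, in a list that holds none of the 10 genes. The list shares Fos, Fosb, Jun, Junb, Atf3, Ier3, Zfp36, Socs3 and Btg2 with the receptor-induced list, so the fall of Fosb is counted in both. Falls numbered 1 without KO array 1, Het array 2 or Het array 3, 2 without KO array 3 and 3 without KO array 2 or Het array 4. Immediate early genes can also respond to tissue processing, and the part of that in these values was not tested.

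**Figure D5:**
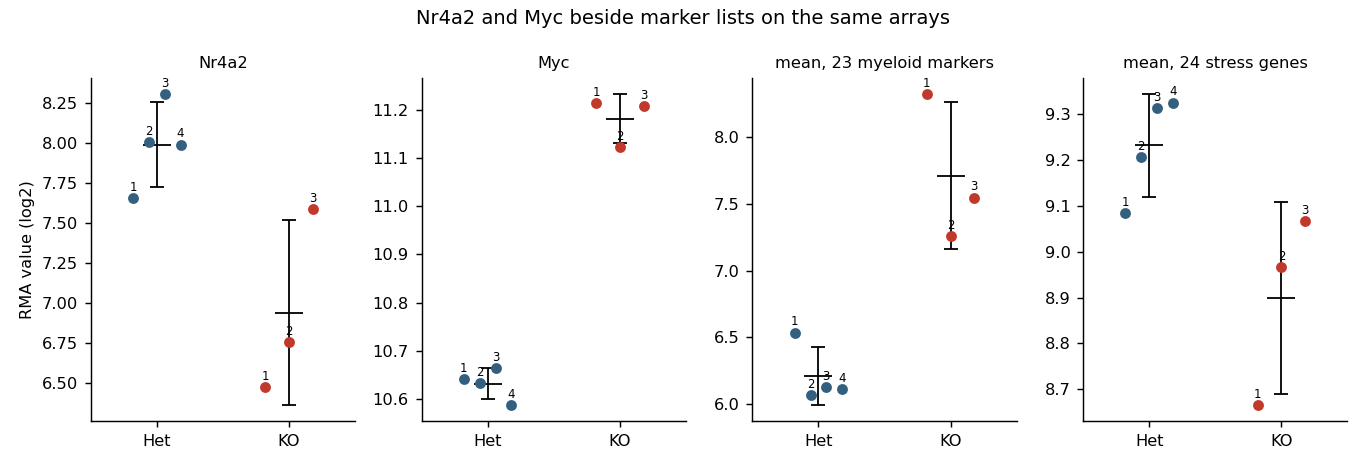
Values of Nr4a2 and Myc and mean values of 23 myeloid markers and 24 dissociation and heat shock genes (log2, vertical axis, scale differing by panel) on each array; points carry replicate numbers and black marks are the group mean and SD. KO array 1 is lowest for Nr4a2 (6.47) and the stress genes (8.66) and highest for the myeloid markers (8.32), while the 3 KO arrays are close together for Myc.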

How the data were processed

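Single-colour arrays were hybridised with amplified, biotin-labelled cDNA from 1 - 20 ng of total RNA, per the labels' protocols (NuGEN WTA Pico v2 and Encore Biotin). The deposited log2 values were made by the authors with RMA in Affymetrix Expression Console 1.1, per the submitters' processing notes. RMA equalises array distributions of probe values, which would shrink a common shift of most genes. The deposited probe set values were not fully equal: array medians ran from 5.93 on KO array 1 to 6.12 on Het array 4. The highest value was 12.67 on KO array 1 and 13.73 to 14.05 on the other arrays. The sources used here name neither the array design nor a genome build. Both deposited tables hold the same values.

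Of 28846 probe sets, 22206 carried 1 gene symbol, for 21903 genes. A floor per array was set at the 95th percentile of 1117 olfactory receptor probe sets (5.48 to 5.77), and the 13084 genes that exceeded it on 3 or more arrays were tested. Where no array of the dimmer group was above the floor, the fold is given as at least the brighter mean over the dimmer group raised to the floor. The genotypes were compared by lmFit and eBayes (limma 3.58.1, R 4.3.3), p-values were Benjamini-Hochberg adjusted over the tested genes, and the threshold was 0.05. This was tested on simulated data. Replicates were numbered in order of deposit and do not pair samples. Since separate animals are not stated, p-values reflect only how these samples vary, perhaps technically; 7 arrays limit the precision.

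The 10 genes, the 12 pairs and the 11 gene lists were chosen with earlier results of these data known. Named genes are the 10, Pggt1b, Foxp3, called list members of smallest p, the largest non-overlapping falls of the receptor-induced list, and the 2 nearest profiles of each of the 10. Other list members (Fos, Junb, Jun, Zfp36, Egr4, Atf3, Cd5, Irf4, S1pr1, Srf, Max, Nab1, Lag3 and the cell markers) were named after their values were seen. Lists are described by counts and medians. Some genes that the rule names are not reported here. The other settings were 3 array scalings, 3 filters, 2 ways of treating probe sets, trended and robust moderation, array weights and each array left out.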

Additional observations from a re-analysis of the deposited data

Results flagged for a closer look

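Of 36 sets of 4 Het values examined for an array far from the others by Dixon's ratio, 3 stood out, and chance gives about 1 in 20. For Myc minus Egr2 the gap of Het array 4 to the others took 0.876 of the range. For Cd69 minus Nr4a1 the gap of Het array 2 took 0.844 of the range. For the mean of the myeloid markers the gap of Het array 1, at 6.54 beside 6.07 to 6.13 on the other Het arrays, took 0.874 of the range.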

How the results depend on the processing

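The Myc call and the signs of 9 of the 10 genes were the same in all 17 other settings. Nab2, near 0, changed sign: 0.042 with arrays centred on the median of all probe sets, 0.024 with quantile normalization, 0.00846 with arrays centred on the tested genes, 0.060 with array weights, and -0.14 to 0.13 with 1 array left out. Nr4a2 lost its call with 5 of the 7 arrays left out in turn, and the cause was not tested beyond there being fewer arrays. Genes among the 10 that fell numbered 3 with trended and robust moderation (Nr4a2, Egr2 and Cd69) and 0 to 1 with 1 array left out. Over all genes, 333 rose and 424 fell, against 497 and 627 with trended and robust moderation and 547 and 697 with array weights. With 1 array left out they were 180 to 293 and 233 to 458. Counts among the 10 and in the lists shift together with these totals, so a changed count in a setting is not by itself a result about them. Centring each array on the median of all probe sets gave 406 and 291. Of the pairs, Egr2 minus Egr3 turned to -0.00315 with quantile normalization and -0.12 with the mean of all probe sets, and ranged from -0.10 to 0.22 with 1 array left out. Nab2 minus Egr1 ranged from -0.26 to 0.029 and Ier2 minus Egr1 from -0.057 to 0.16. With 1 array left out the exact test has too few splits to reach 0.05, so only sizes are read. No paired analysis was possible because the labels give no replicate numbers shared by the groups.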

Other observations

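The Egr1 value was 8.979177 on both KO array 2 and Het array 3, and the Egr3 value was 8.271598 on both KO array 2 and Het array 2. Values equal to 6 decimals on at least 2 arrays occurred in 627 of the 13084 tested genes (4.79%).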
